A study of Mus musculus with 119 samples.

Results

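A list of 10 genes of the actin cytoskeleton that are known as targets of serum response factor (SRF) were followed across the whole RNA-seq series. They were taken by symbol from the 18098 genes in the table, and all 10 were found: Actb, Actg1, Vcl, Flna, Tpm4, Cnn2, Myh9, Tagln2, Zyx and Tln1. The series holds 119 libraries of bone marrow-derived macrophages (BMDMs) from C57BL/6(NIMR) mice in 25 groups, and it was made to find genes controlled by the kinase TPL-2 (gene Map3k8). Every culture was grown from bone marrow in L-cell conditioned medium and kept overnight in low serum before LPS at 100 ng/ml. Cells were wild-type (WT, 22 libraries at 0, 0.5, 1 and 2 h of LPS), Map3k8[D270A] with kinase-inactive TPL-2 (24 libraries, same times), Elk1-/-Elk4-/- without the ternary complex factors ELK1 and ELK4 (16 libraries, same times), or Nfkb1[SS/AA], whose p105 protein cannot be degraded on stimulation and holds TPL-2 back (18 libraries at 0, 0.5 and 1 h). WT cells also received the MKK1/2 inhibitor PD0325901 at 0.1 µM with LPS for 0.5 or 1 h (6 libraries each) or without LPS for 10, 40 or 70 min, or the solvent DMSO for 10 min (3 libraries each). A last set of WT cells received the RSK inhibitor RSKi47 at 2 µM with LPS for 0, 0.5, 1 or 2 h (4, 3, 4 and 4 libraries). Inhibitors were added 10 min before LPS. The mutations are germline, so every cell of those cultures carries them. Ages of the mice are not stated in the labels or methods used.

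SRF is a DNA-binding factor that works with either of 2 families of partners. The ternary complex factors (ELK1, ELK3 and ELK4) bind beside it and are switched on when ERK1/2 phosphorylates them, which drives immediate-early genes such as Egr1 and Fos. The myocardin-related factors (genes Mkl1 and Mkl2) bind free actin monomers, are released when actin polymerises, and drive genes of the actin cytoskeleton and of adhesion. The 2 families compete for SRF. In macrophages the products of these genes serve spreading, migration and uptake of particles.

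SRF binds a 10-base CArG box, a pair of C and a pair of G around 6 bases that are A or T. The promoter windows of RefSeq on GRCm38.p6, from 250 bases before to 50 after a gene's start, were searched for it on both strands (the box reads as a CArG box on either). A window was found for 9 of the 10 genes, so Actb was not searched, and 3 of the 9 held a box, against 1.81% of 27025 genes. The list was made of known SRF targets, so these shares are not an independent comparison. All boxes found in these windows are shown, and those of Srf itself are shown for comparison. Positions are counted from the start site of the RefSeq window, which for Vcl lies slightly downstream of the gene's first base given below. Each stretch is written 5′ to 3′ on the gene's strand with the box in capitals.
Cnn2, chr10:79988534-79988563, plus strand, box starting at -56 from the start: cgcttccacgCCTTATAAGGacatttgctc
Actg1, chr11:120348566-120348595, minus strand, box starting at -90 from the start: ggaaagatcgCCATATATGGacatgttctg
Vcl, chr14:20929161-20929190, plus strand, box starting at -227 from the start: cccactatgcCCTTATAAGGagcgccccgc
Srf, chr17:46556225-46556254, minus strand, box starting at -82 from the start: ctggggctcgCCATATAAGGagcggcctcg
Srf, chr17:46556205-46556234, minus strand, box starting at -62 from the start: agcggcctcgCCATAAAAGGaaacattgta
The Cnn2 and Vcl boxes are the same 10 bases. A match is a description of the letters in the window, not a site shown to be bound.

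On GRCm38.p6 the gene for β-actin, Actb, lies at chr5:142903115-142907976 and the one for γ-actin, Actg1, at chr11:120345687-120348495. The adhesion genes Vcl (vinculin, chr14:20929383-21033676), Zyx (zyxin, chr6:42349511-42360213) and Tln1 (talin 1, chr4:43531513-43562583) are on 3 further chromosomes. Flna (filamin A, chrX:74223461-74249854) and Myh9 (non-muscle myosin heavy chain IIA, chr15:77760585-77842175) encode a crosslinker and a motor. Tpm4 (tropomyosin 4, chr8:72135288-72153142), Cnn2 (calponin 2, chr10:79988600-79995400) and Tagln2 (transgelin 2, chr1:172500246-172507375) encode proteins that lie along filaments. All 10 stood above the low-value filter in all 119 libraries. The coding sequences of Actb and Actg1 share 997 of 1125 bases (88.6%), so how reads were divided between these 2 genes is uncertain.

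Values are the authors' normalised expression on a log2 scale, and every level and difference below is on that scale. Neither the labels nor the methods say how the values were transformed, so a difference may understate the fold change. The table does not give the depth of each library, and the methods give only a typical yield of reads. Labels of the double knockout matched the data: Elk1 was at 6.17 to 6.59 in Elk1-/-Elk4-/- libraries and 9.04 to 9.49 in WT, and Elk4 at 5.51 to 5.88 and 7.57 to 8.49. The 7 macrophage markers summed (linear scale) to 367000 to 471000 in WT, 322000 to 384000 in Elk1-/-Elk4-/- and 416000 to 575000 in Nfkb1[SS/AA] libraries, and lay between 360000 and 494000 in the other arms. Lyz2 weighs most in this sum, with a median of 18.11 (log2) against 15.37 for the next, Cd68. The 8 neutrophil markers summed to 1060 to 2120 in Elk1-/-Elk4-/- libraries against 78.4 to 218 in WT, and the 6 platelet markers to 2900 to 4410 against 1580 to 2910. Of the neutrophil list Elane and Mpo were below the filter in every library, and of the platelet list Itga2b, Gp9, Gp1bb and Gp5, with Ppbp above it in 52 of 119, so that the platelet sum is in effect that of Pf4. Of the 6 lymphocyte markers Cd79b alone was above the filter, in all 119 libraries, and the other 5 were in none. The 7 stromal markers summed without LPS to 24.4 to 31.3 in WT and 57.5 to 74.9 in RSKi47 replicates 1 to 3, and at 2 h to 57.2 to 77 and 75.1 to 79.4. RSKi47 replicate 4 had sums of 696, 174 and 117 at 0, 1 and 2 h, with Col3a1, Dcn, Lum and Pdgfra below the filter in every library. In bulk samples fewer cells of a type and less RNA per cell cannot be told apart. The labels do not say that replicates came from separate animals, so p-values measure the spread between these samples only.

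LPS raised 5 of the 10 genes in WT cells by 2 h, none of them by as much as 1 on the log2 scale. A gene was called changed where limma's adjusted p over all genes was below 0.05. At 0.5 h only Actg1 was called higher (1 of 10), at 1 h 4 of 10 and at 2 h 5 of 10, and none was called lower at any time. Over all 11884 genes tested, 7.82% were called higher and 3.81% lower at 0.5 h, 23.8% and 23.0% at 1 h, and 34.7% and 36.8% at 2 h. Values did not overlap with the unstimulated ones for 0, 4 and 4 of the 10, beside 8.29%, 29.6% and 58.3% of all genes. The median difference of the 10 genes was 0.00 at 0.5 h, 0.10 at 1 h and 0.16 at 2 h, beside 0.00, 0.00 and -0.02 over all genes. By contrast all 8 immediate-early genes of the ternary complex factor list (Egr1, Egr2, Egr3, Fos, Fosb, Ier2, Nr4a1 and Junb) were higher at 0.5 and at 1 h, with medians of 2.87 and 2.65.

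At 2 h Tagln2 and Tpm4 had the largest responses of the 10. Tagln2 in unstimulated WT libraries had a lowest value of 13.43, a median of 13.48 and a highest of 13.52, and 13.86, 13.95 and 14.02 at 1 h. At 2 h its 4 values were 14.36, 14.33, 14.45 and 14.42. All libraries at 1 and 2 h stood above all unstimulated ones, by 0.47 ± 0.03 (SE, adjusted p = 1.95e-19) and 0.91 ± 0.03 (adjusted p = 2.01e-30), the latter 1.88-fold if the scale is a plain log2. Tpm4 had a lowest value of 13.66, a median of 13.68 and a highest of 13.76 without LPS and read 14.59, 14.46, 14.56 and 14.53 at 2 h. Its 2 groups did not overlap, and the difference was 0.84 ± 0.04 (adjusted p = 3.17e-26), with 0.19 ± 0.04 at 1 h (adjusted p = 6.77e-06).

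Both actin genes were higher at 1 and at 2 h. Actb read 16.63, 16.70 and 16.78 (lowest, median and highest) without LPS and 17.10, 17.25, 17.23 and 17.02 at 2 h. Actg1 read 16.33, 16.39 and 16.53 without LPS and 16.82, 16.77, 16.78 and 16.76 at 2 h. Neither gene's groups overlapped, and the differences at 2 h were 0.45 ± 0.07 (adjusted p = 1.02e-07) for Actb and 0.38 ± 0.04 (adjusted p = 1.42e-13) for Actg1. At 1 h they were 0.21 ± 0.06 (adjusted p = 0.00378) and 0.29 ± 0.03 (adjusted p = 6.47e-11), and in a fit of WT replicates 7 to 9 and Map3k8[D270A] replicates 4 to 6 alone the 1 h call of Actb was lost (0.16, adjusted p = 0.187). The 0.5 h call of Actg1, at 0.10 ± 0.03 (adjusted p = 0.0421), was lost without WT replicate 4 (0.09), 7 (0.09) or 8 (0.08), with libraries centred on their median (0.08) or with a mean-variance trend (adjusted p = 0.0597).

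Of the adhesion and contractile genes only Zyx was called in WT cells, at 2 h. Zyx read 11.60, 11.78 and 11.88 (lowest, median and highest) without LPS and 12.06, 12.14, 12.10 and 11.81 at 2 h, so the groups overlapped, with a difference of 0.25 ± 0.09 (adjusted p = 0.0103). With WT replicates 7 to 9 and Map3k8[D270A] 4 to 6 alone, where 1 WT library remains at 2 h, it was 0.10 (adjusted p = 0.289), and with WT 4 to 6 and Map3k8[D270A] 1 to 3 Zyx was called at 1 h as well (0.16). Vcl differed by -0.03 ± 0.05 at 2 h (95% interval -0.14 to 0.08), Flna by -0.04 ± 0.09, Myh9 by -0.06 ± 0.09 and Tln1 by -0.18 ± 0.11, and none passed. Cnn2 differed by -0.11 ± 0.05 at 1 h (adjusted p = 0.0728), and with the replicate number as a block the same difference had an adjusted p of 0.00995 (0.0318 with libraries centred on their median).

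**Figure D1:**
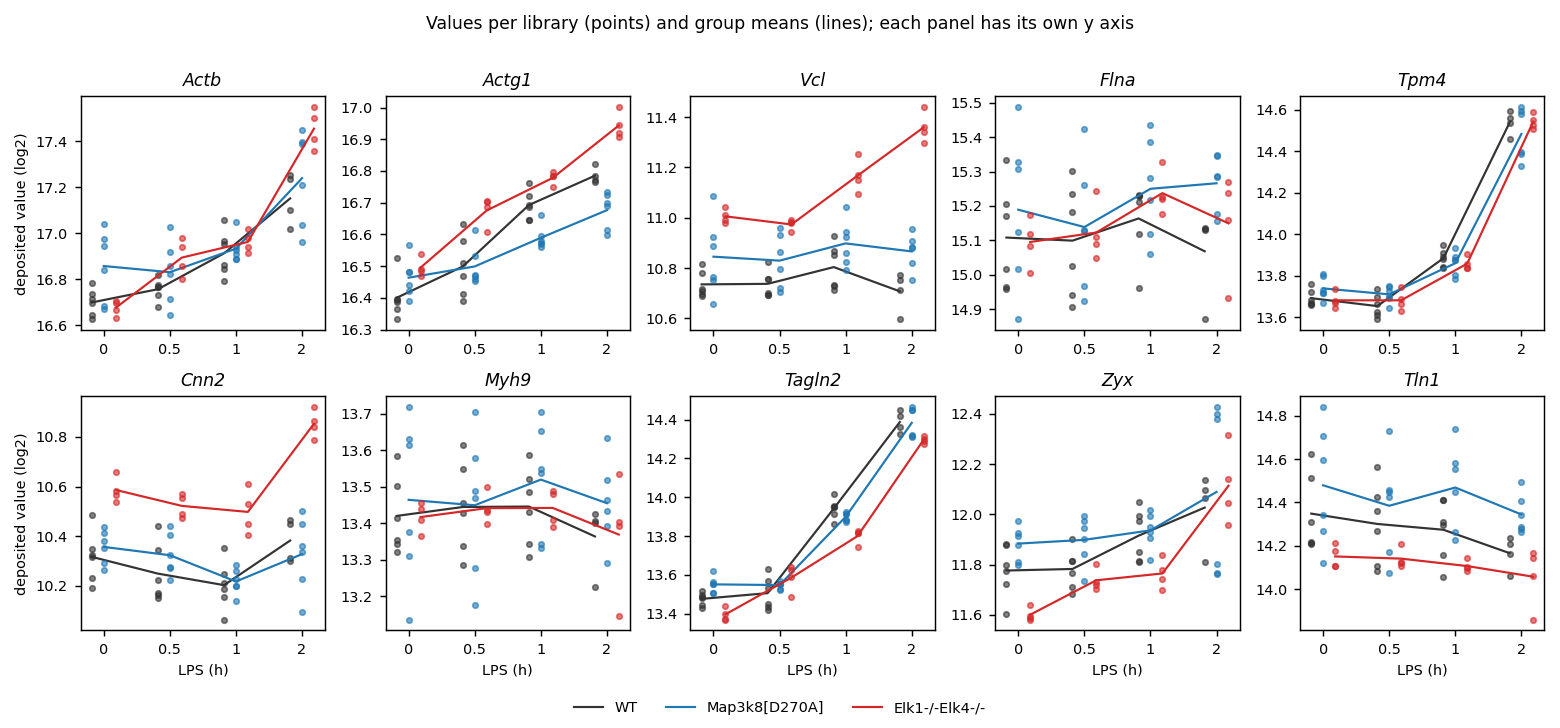
Value of each gene (y axis, log2) by hours of LPS (x axis) in WT, Map3k8[D270A] and Elk1-/-Elk4-/- cells. Points are libraries and lines join group means. Tagln2 and Tpm4 rise in all 3 genotypes, while Vcl and Cnn2 lie higher in Elk1-/-Elk4-/- cells at every time.

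In Map3k8[D270A] cells, which lack TPL-2 kinase activity, Actg1 was lower at 1 and 2 h and Vcl higher at 2 h, and the share of the 10 genes called was near that of all genes at each time. None of the 10 was called at 0 or 0.5 h by limma (3 and 0 at an unadjusted p below 0.05, beside 11.9% and 11.3% of all genes). Over all genes 0.606% were called higher and 0.833% lower at 0 h, and 0.480% and 0.892% at 0.5 h. At 1 h 1 of 10 was called lower (Actg1, -0.10 ± 0.03, adjusted p = 0.0371), with 5.14% of all genes higher and 4.64% lower. At 2 h Actg1 was lower (-0.11 ± 0.04, adjusted p = 0.0233) and Vcl higher (0.16 ± 0.05, adjusted p = 0.0229; Flna, at 0.20, was called with other libraries in the fit), with 14.6% of all genes higher and 13.1% lower. Actg1 at 2 h read 16.69, 16.70, 16.72, 16.73, 16.60 and 16.61 in Map3k8[D270A] replicates 1 to 6, all below the 4 WT values. At 2 h 3 of the 10 genes had no overlap with WT, beside 14.6% of all genes. With WT replicates 4 to 6 and Map3k8[D270A] replicates 1 to 3 alone, 6 of 10 genes passed at 2 h with a median of 0.17, and with WT 7 to 9 and Map3k8[D270A] 4 to 6 none passed (median -0.02, a single WT library at 2 h).

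The LPS response of Actg1 was smaller in Map3k8[D270A] than in WT cells. The difference of responses was -0.17 ± 0.05 at 1 h (adjusted p = 0.0445) and -0.17 ± 0.05 at 2 h (adjusted p = 0.0118). No other gene of the 10 was called for its response, although with the replicate number as a block Tpm4 was added at 2 h (-0.11, adjusted p = 0.037, limma). With WT replicates 4 to 6 and Map3k8[D270A] 1 to 3 alone 3 responses passed at 1 h, with Actb (-0.27, adjusted p = 0.0494) and Tagln2 (-0.18, adjusted p = 0.0341) added, and 2 at 2 h, with Zyx added (0.25, adjusted p = 0.00671). With WT 7 to 9 and Map3k8[D270A] 4 to 6 alone the 1 h Actg1 call was lost (-0.16, adjusted p = 0.725) and no other was gained. At 2 h, where a single WT library remains in this subset, the difference for Actg1 was -0.17. Over all genes 0.109%, 2.02% and 15.5% were called at 0.5, 1 and 2 h. At 0.5 h none of the 10 reached an unadjusted p below 0.05 in this test. Within the Map3k8[D270A] cells Tagln2 (0.83 ± 0.03), Tpm4 (0.74 ± 0.04), Actb (0.38 ± 0.06), Actg1 (0.21 ± 0.03) and Zyx (0.21 ± 0.08) rose by 2 h, the 5 that rose in WT. Zyx did so in replicates 1 to 3 only, from 11.91, 11.97 and 11.81 without LPS to 12.43, 12.40 and 12.38 at 2 h. In replicates 4 to 6 it went the other way, from 11.92, 11.88 and 11.80 to 11.80, 11.76 and 11.77, and the difference within them was -0.09 (adjusted p = 0.166, limma). At 2 h in this genotype 34.9% of all genes were called higher and 34.6% lower. Zyx in these cells lost its call without replicate 1 (0.14), 2 (0.16) or 3 (0.13). Myh9 was called in opposite directions at 2 h of LPS in these subsets, higher in replicates 1 to 3 (0.24, adjusted p = 0.0155) and lower in 4 to 6 (-0.26, adjusted p = 0.00304). Vcl (0.17) and Flna (0.27) were called higher in the former and were at -0.12 and -0.11 in the latter, where Tln1 was called lower (-0.39, adjusted p = 0.00122). Over all Map3k8[D270A] replicates Tln1 was called lower with the length trend removed (-0.17, adjusted p = 0.0366, limma). The difference between the subsets was not tested. Neutrophil marker sums also separated them, at 73 to 82.3 in Map3k8[D270A] replicates 1 to 3 and 93.2 to 126 in 4 to 6 without LPS. At 2 h these sums were 86.6 to 92.7 and 119 to 168, and the stromal sums were 77.6 to 92.6 and 51.7 to 70.5. The part of these markers was not tested.

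These small calls depended on single libraries. Actg1 at 1 h was lost without WT replicate 4, 6 or 8 or Map3k8[D270A] replicate 1, 2, 3, 5 or 6 (-0.10 in each) or with a mean-variance trend (adjusted p = 0.0529), and at 2 h without WT replicate 4 (-0.10) or 6 (-0.11) or Map3k8[D270A] replicate 5 (-0.09) or 6 (-0.10). Both were lost with each library's trend with transcript length removed (adjusted p = 0.0998 and 0.0868). Vcl at 2 h was lost without WT replicate 6 (0.12) or Map3k8[D270A] replicate 6 (0.14). The difference of the Actg1 responses at 1 h was lost without WT replicates 4 to 8 or Map3k8[D270A] replicates 1, 2, 4, 5 or 6 (-0.15 to -0.17), with the mean-variance trend (adjusted p = 0.0704) or with the length trend removed (adjusted p = 0.095), and at 2 h without WT replicate 4 (-0.15).

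Vcl and Cnn2 were higher in Elk1-/-Elk4-/- than in WT cells at every time, before LPS as after it. Of the 10 genes 3, 3, 3 and 4 were called higher and 1, 0, 1 and 1 lower at 0, 0.5, 1 and 2 h. Over all genes 27.2% were called higher and 24.6% lower at 0 h, 22.4% and 22.0% at 0.5 h, 27.2% and 26.2% at 1 h, and 27.7% and 23.1% at 2 h, so the share of the 10 was near that of all genes. The medians of the 10 genes were -0.01, 0.05, 0.02 and 0.08, beside 0.01, 0.00, 0.01 and 0.02 over all genes. No WT libraries prepared with the Elk1-/-Elk4-/- set were identified in the labels, so genotype and experiment cannot be told apart here. The higher neutrophil markers and Pf4 and the lower macrophage sum (median 343000 against 415000 in WT), in which Lyz2 weighs most, go with the same libraries. So do higher lymphocyte markers (99.7 to 136 against 58.28 to 89.5 in WT without LPS). The part of all these markers in the differences was not tested.

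Vcl, which links integrin adhesions to actin, read 10.98, 11.04, 10.99 and 11.01 in unstimulated Elk1-/-Elk4-/- libraries. The 6 WT libraries had a lowest value of 10.69, a median of 10.71 and a highest of 10.82. At 2 h the values were 11.34, 11.44, 11.36 and 11.30 in Elk1-/-Elk4-/- and 10.77, 10.75, 10.60 and 10.71 in WT. The groups did not overlap at any time, and the differences were 0.27 ± 0.05 at 0 h (adjusted p = 3.94e-05), 0.24 ± 0.05 at 0.5 h (adjusted p = 0.000375), 0.36 ± 0.05 at 1 h (adjusted p = 1.75e-07) and 0.65 ± 0.06 at 2 h (adjusted p = 3.66e-13). The last is 1.57-fold on a plain log2 scale.

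Cnn2, an actin-binding protein that restrains myosin, read 10.58, 10.54, 10.66 and 10.57 without LPS in Elk1-/-Elk4-/- libraries, above the WT lowest, median and highest of 10.19, 10.32 and 10.49. At 2 h it read 10.79, 10.84, 10.86 and 10.92 against 10.45, 10.47, 10.30 and 10.31 in WT. Again no library of one group fell within the other at any time. The differences were 0.27 ± 0.06 (adjusted p = 0.000142), 0.27 ± 0.06 (adjusted p = 0.000173), 0.29 ± 0.06 (adjusted p = 3.79e-05) and 0.47 ± 0.06 (adjusted p = 2.88e-08) at 0, 0.5, 1 and 2 h.

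Actg1 was called higher at all 4 times with smaller differences, and Actb at 2 h only. Actg1 differed by 0.09 ± 0.04 (adjusted p = 0.0292), 0.18 ± 0.04 (adjusted p = 0.000126), 0.09 ± 0.04 (adjusted p = 0.0486) and 0.16 ± 0.04 (adjusted p = 0.00105). Its call at 0 h was lost without WT replicate 4 (0.08) or 5 (0.09) or Elk1-/-Elk4-/- replicate 2 (0.10) or 4 (0.08), and at 1 h without WT replicates 4 to 7 or any Elk1-/-Elk4-/- replicate (0.08 or 0.09), with median centring (0.08), with the mean-variance trend (adjusted p = 0.0643) or with no filter (adjusted p = 0.0549). Actb at 2 h read 17.36, 17.41, 17.55 and 17.50 in Elk1-/-Elk4-/- libraries, all above the WT values, a difference of 0.30 ± 0.08 (adjusted p = 0.000876).

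Tagln2 was the one gene of the 10 that was called lower in Elk1-/-Elk4-/- cells. It differed by -0.08 ± 0.03 at 0 h (adjusted p = 0.0471), -0.14 ± 0.03 at 1 h (adjusted p = 0.000494) and -0.09 ± 0.04 at 2 h (adjusted p = 0.0377), and by 0.08 ± 0.03 at 0.5 h (adjusted p = 0.0525). The 1 h groups did not overlap: 13.83, 13.82, 13.74 and 13.81 against a WT lowest, median and highest of 13.86, 13.95 and 14.02. The call at 0 h was lost without WT replicate 6, 7, 8 or 9 or Elk1-/-Elk4-/- replicate 1, 2 or 3 (-0.07 or -0.08) and with the replicate number as a block (adjusted p = 0.0656), at 2 h without WT replicate 6 (-0.07) or 7 (-0.08) or Elk1-/-Elk4-/- replicate 1 (-0.09), 2 (-0.08) or 4 (-0.09), and that at 0.5 h was gained without WT replicate 7 (0.09), 8 (0.11) or 9 (0.09) or Elk1-/-Elk4-/- replicate 3 (0.11). Each library's trend with transcript length was also removed, and Tagln2 then differed by 0.02 at 0 h, -0.05 at 1 h and -0.06 at 2 h, none of them called, and by 0.14 at 0.5 h, which was called. That at 0.5 h was called too with median centring, the mean-variance trend or other libraries in the fit (0.08 in each). Under the same correction Tln1, with a transcript of 8393 bases, was called lower at 0 h (-0.30), 0.5 h (-0.21) and 1 h (-0.27), and Actb higher at 0.5 h (0.18), and with other libraries in the fit Tln1 was called lower at 0 h (-0.20). Flna, Tpm4, Myh9 and Zyx were not called at any time.

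The LPS response itself was larger in Elk1-/-Elk4-/- cells for 2 of the 10 genes at 2 h, a share near the 16.9% of all genes whose response differed. Vcl rose by 0.35 ± 0.06 there (adjusted p = 6.55e-07) and differed by -0.03 in WT, a difference of responses of 0.38 ± 0.08 (adjusted p = 0.000421). Actb rose by 0.78 ± 0.08 (adjusted p = 3.67e-13) and by 0.45 in WT, a difference of responses of 0.33 ± 0.10 (adjusted p = 0.0226). The Actb difference was lost without WT replicate 4 (0.32) or 7 (0.28) or Elk1-/-Elk4-/- replicate 3 (0.30) or 4 (0.32), or with the length trend removed (0.28, adjusted p = 0.0541). Within the Elk1-/-Elk4-/- cells 7 of 10 genes were called higher at 2 h (Actb, Actg1, Vcl, Tpm4, Cnn2, Tagln2 and Zyx), where 35.2% of all genes were called higher and 32.0% lower. Of all genes 16.9% had a response that differed from WT at 2 h, 1.35% at 1 h and 0.0589% at 0.5 h. None of the 10 did at 0.5 or 1 h (1, Tagln2, and 0 at an unadjusted p below 0.05). With the replicate number as a block, 4 of 10 responses differed at 2 h, with Cnn2 (0.19) and Zyx (0.29) added.

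The immediate-early genes were lower in the same libraries. All 8 were called lower in Elk1-/-Elk4-/- cells at 0.5 h and 7 of 8 at 1 h, with medians of -0.86 and -0.94, and all 8 and 7 of 8 in Map3k8[D270A] cells, with medians of -1.22 and -1.11. Egr1, an immediate-early transcription factor, differed by -4.45 ± 0.15 at 0.5 h in Elk1-/-Elk4-/- and by -4.41 ± 0.13 in Map3k8[D270A] cells. Srf was lower in Elk1-/-Elk4-/- cells at 0 h (-0.19 ± 0.05, adjusted p = 0.000996) and 2 h (-0.28 ± 0.05, adjusted p = 1.71e-05), and its partner Mkl2 was higher (0.34 ± 0.07 at 0 h, adjusted p = 0.000127). Mkl1 differed by 0.12 ± 0.08 at 0 h and was not called.

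**Figure D2:**
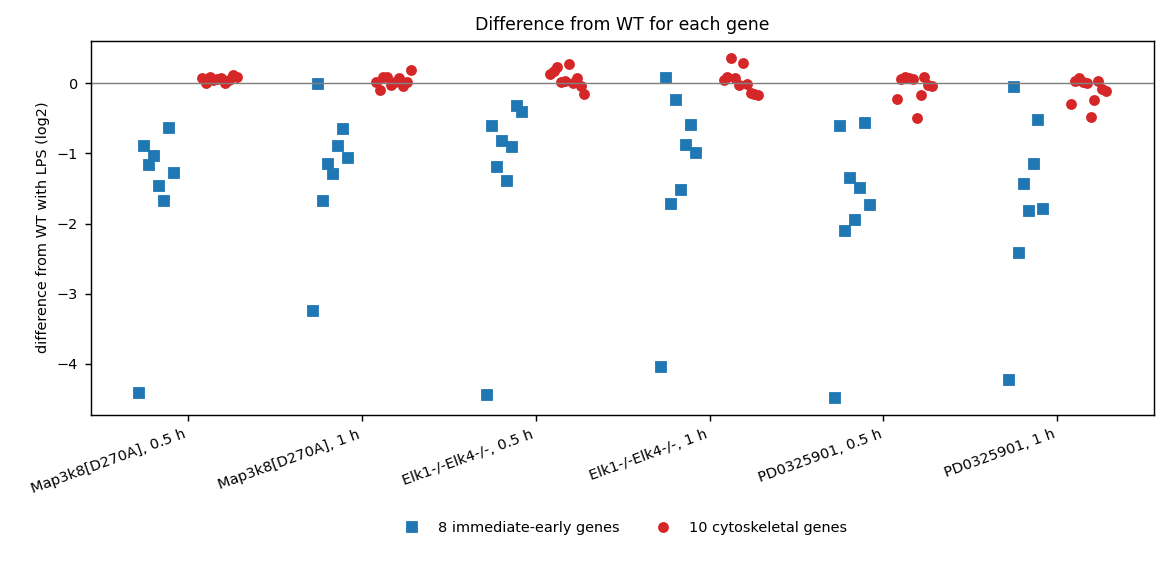
Difference from WT with LPS (y axis, log2) for the 8 immediate-early genes (squares) and the 10 cytoskeletal genes (circles) in 6 comparisons (x axis). Egr1 is the lowest square in each comparison, near -4 in all but Map3k8[D270A] cells at 1 h, and the 10 cytoskeletal genes lie between -0.50 and 0.36.

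In Nfkb1[SS/AA] cells Cnn2 was lower than in WT at all 3 times, and Actb and Myh9 were lower after LPS. No gene was called higher and 2 lower at 0 h (Cnn2 and Tpm4), none higher and 4 lower at 0.5 h, and 1 higher and 4 lower at 1 h. Over all 11971 genes tested, 16.9% were called higher and 15.1% lower at 0 h, 16.7% and 15.6% at 0.5 h, and 20.5% and 21.9% at 1 h. Their medians were -0.06, -0.01 and -0.07, beside 0.00, 0.00 and -0.01 over all genes. These cells too have no WT libraries of their own set in the labels, so genotype and experiment cannot be told apart. Their macrophage markers summed to 448000 to 575400 at 1 h, above the 396200 to 445300 of WT, and to 415600 to 551400 without LPS against 383600 to 441400. The neutrophil markers summed to 157.5 to 329.5 at 1 h against 86.89 to 217.7. The part of either in these differences was not tested.

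Cnn2 without LPS read 9.75, 9.80, 9.95, 9.44, 9.62 and 9.37 in Nfkb1[SS/AA] replicates 1 to 6, all below the lowest WT value of 10.19. The difference was -0.66 ± 0.07 (adjusted p = 1.22e-13), and it was -0.63 ± 0.07 at 0.5 h (adjusted p = 6.82e-13) and -0.61 ± 0.07 at 1 h (adjusted p = 1.26e-12), with no overlap at any time. Actb differed by -0.19 ± 0.06 at 0.5 h (adjusted p = 0.0151) and -0.29 ± 0.06 at 1 h (adjusted p = 8.48e-05), with overlapping groups, and the former was lost without Nfkb1[SS/AA] replicate 6 (-0.16). Myh9 differed by -0.20 ± 0.07 at 0.5 h (adjusted p = 0.012) and -0.28 ± 0.07 at 1 h (adjusted p = 0.000222), where the groups did not overlap. At 0 h it differed by -0.16 ± 0.07 (adjusted p = 0.055), and it was called with the replicate number as a block (adjusted p = 0.0472), with median centring (adjusted p = 0.0394), with the length trend removed (adjusted p = 0.00876) or without WT replicate 4 (-0.18) or 6 (-0.17) or Nfkb1[SS/AA] replicate 2 (-0.18).

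Tpm4 differed by -0.14 ± 0.03 (adjusted p = 0.000193) and -0.13 ± 0.03 (adjusted p = 0.000961) at 0 and 0.5 h in Nfkb1[SS/AA] cells, and by -0.07 ± 0.03 at 1 h (adjusted p = 0.0839, and 0.0165 with the length trend removed). At 1 h Tagln2 was lower (-0.09 ± 0.03, adjusted p = 0.012) and Actg1 higher (0.09 ± 0.03, adjusted p = 0.0198). The Actg1 call was lost without WT replicate 7 (0.08) or Nfkb1[SS/AA] replicate 2 (0.06) or 4 (0.08) or with the length trend removed (0.06), and both were lost with other libraries in the fit (adjusted p = 0.0707 for Tagln2 and 0.0702 for Actg1). Vcl differed by 0.11, 0.11 and 0.07 at the 3 times and was not called, although it was at all 3 times with the length trend removed (0.11 in each, adjusted p = 0.0277, 0.0265 and 0.0159), at 0 h with the mean-variance trend (adjusted p = 0.0488) or without WT replicate 4 (0.12) or 9 (0.13) or Nfkb1[SS/AA] replicate 4 or 5 (0.13), at 0.5 h without WT replicate 9 (0.13) or Nfkb1[SS/AA] replicate 4 (0.14), and at 1 h without Nfkb1[SS/AA] replicate 2 (0.12). Actg1 responded more to 1 h of LPS than in WT (0.16 ± 0.05, adjusted p = 0.0276), a call lost without WT replicate 6 (0.16) or 7 (0.15) or Nfkb1[SS/AA] replicate 2 (0.13) or 4 (0.15), with other libraries in the fit (adjusted p = 0.145) or with the length trend removed (0.11). The Actb response at 1 h differed by -0.19 (adjusted p = 0.225, and 0.0463 with the block). Over all genes 0.309% of responses differed at 0.5 h and 6.07% at 1 h, and none of the 10 did at 0.5 h, also at an unadjusted p below 0.05.

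With PD0325901, which blocks ERK1/2 activation, Cnn2, Actb and Myh9 were lower than in WT, and Cnn2 was also lower in the solvent libraries. Against WT with LPS, 1 gene was called higher and 3 lower at 0.5 h, and 0 and 3 at 1 h, where 14.5% and 15% of all genes were called at 0.5 h and 16.4% and 19.3% at 1 h. Cnn2 differed by -0.50 ± 0.07 (adjusted p = 6.8e-09) and -0.48 ± 0.07 (adjusted p = 1.03e-08), Actb by -0.22 ± 0.06 (adjusted p = 0.00479) and -0.30 ± 0.06 (adjusted p = 6.06e-05), and Myh9 by -0.16 ± 0.07 (adjusted p = 0.0469) and -0.24 ± 0.07 (adjusted p = 0.00293). The Myh9 call at 0.5 h was lost without WT replicates 6 to 9 or PD0325901 replicates 1, 3, 4, 5 or 6 (-0.13 to -0.17) or with no filter (adjusted p = 0.0666). Tagln2 was higher at 0.5 h (0.09 ± 0.03, adjusted p = 0.0207), a call lost without WT replicate 4 (0.08), 5 (0.07) or 6 (0.07) or PD0325901 replicate 2 (0.08). Actg1 (0.09) and Tpm4 (0.08) were called higher at 0.5 h without WT replicate 9. With the length trend removed Vcl was called higher at 0.5 h (0.11, adjusted p = 0.033) and 1 h (0.10, adjusted p = 0.0298), and with other libraries in the fit Vcl (0.09) and Tpm4 (0.07) were at 0.5 h. PD0325901 replicates 4 to 6 are labelled only with LPS, and whether they are cultures apart from replicates 1 to 3 is not stated in the labels. With 1 and 4, 2 and 5, and 3 and 6 averaged, the 0.5 h calls of Myh9 (-0.16, adjusted p = 0.161, limma) and Tagln2 (0.09, adjusted p = 0.0985, limma) were lost. The neutrophil markers moved with this arm as well, with sums of 309 to 452 at 1 h against 86.9 to 218 in WT, and 189 to 308 in DMSO libraries against 85.1 to 149 in WT without LPS. Their part in these differences was not tested.

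DMSO libraries without LPS already differed from untreated WT in Cnn2. The 3 values were 9.87, 9.97 and 9.89, below the WT lowest of 10.19, a difference of -0.41 ± 0.08 (adjusted p = 0.000128). Groups did not overlap for 4 of the 10 genes, beside 29.3% of all genes. Actg1 differed by 0.14 ± 0.04 (adjusted p = 0.00903), a call lost without DMSO replicate 3 (0.13). So 1 gene was called higher and 1 lower, beside 12.5% and 11.1% of all genes, and without WT replicate 8 Tagln2 (0.10), or without WT replicate 9 Vcl (0.16), was called higher too. Tagln2 was also called with the length trend removed (0.13), with the block (0.10) and with other libraries in the fit (0.09), and the last called Vcl (0.14). PD0325901 for 10 min against DMSO for 10 min called none of the 10 and 0% of all genes higher and 0% lower by limma (0 of the 10 and 2.05% of all genes at an unadjusted p below 0.05). There Cnn2 differed by 0.00 ± 0.10 and Actb by 0.00 ± 0.09. PD0325901 for 70 against 10 min called none of the 10 (0 also unadjusted), with 2.62% of all genes higher and 3.47% lower. No response to LPS under PD0325901 differed from WT among the 10 (0 and 1, Tagln2 at 1 h, unadjusted), beside 1.49% and 3.58% of all genes at 0.5 and 1 h. The experiment and the inhibitor cannot be told apart in the comparison with WT.

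**Figure D3:**
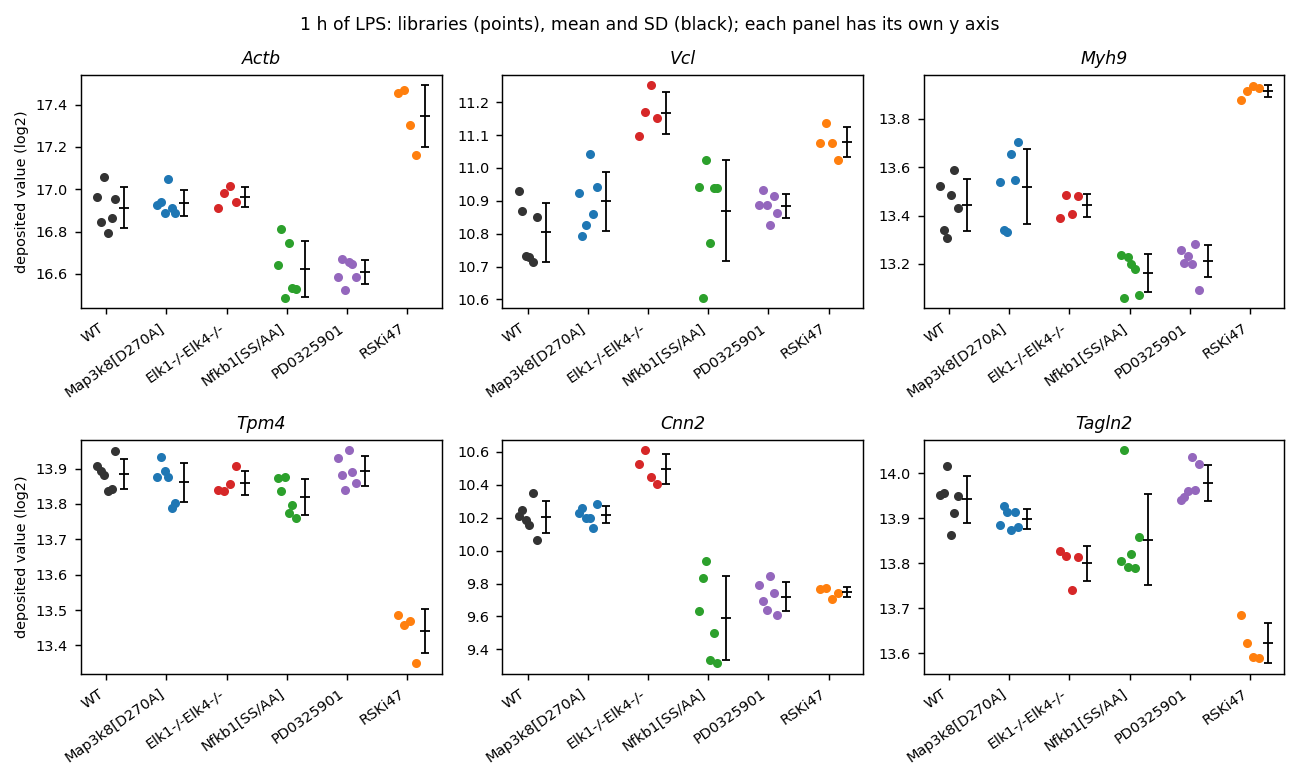
Values (y axis, log2) of 6 genes at 1 h of LPS in 6 arms (x axis). Points are libraries, and black bars give the mean and SD. Cnn2 lies above WT in Elk1-/-Elk4-/- cells and below it in the Nfkb1[SS/AA], PD0325901 and RSKi47 arms, and Actb and Myh9 are highest under RSKi47.

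Most of the 10 genes differed between RSKi47 and WT libraries, in both directions, already without LPS. At 0 h 6 genes were called higher (Actb, Actg1, Vcl, Flna, Myh9 and Tln1) and 3 lower (Tpm4, Cnn2 and Tagln2), where 26.8% of all genes were called higher and 26.3% lower. The counts were 6 and 3 at 0.5 h (23.7% and 24.5% of all genes), 3 and 3 at 1 h (26.5% and 26.3%), and 5 and 3 at 2 h (27.5% and 24.6%). The medians of the 10 were 0.18, 0.20, 0.10 and 0.15, beside 0.01, -0.01, 0.00 and 0.02 over all genes. Zyx was not called at any time. Groups did not overlap for 6, 7, 7 and 6 of the 10 genes at the 4 times. The share of all genes without overlap was 38.5%, 42.5%, 32.6% and 39.1%. The comparison is with untreated WT cells, so the inhibitor, its solvent and the experiment cannot be told apart. The neutrophil markers summed to 183 to 228 under RSKi47 without LPS, against 85.1 to 149 in WT, and the stromal markers, at 57.5 or more against 31.3 or less, did not overlap either. The 6 lymphocyte markers summed to 43 to 46.51 under RSKi47 without LPS against 58.28 to 89.5 in WT. The part of these marker lists was not tested.

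Actb without LPS read 17.30, 17.36, 17.25 and 17.11 under RSKi47, above the WT highest of 16.78. Its differences at the 4 times were 0.56 ± 0.07 (adjusted p = 6.77e-11), 0.59 ± 0.08 (adjusted p = 3.48e-10), 0.43 ± 0.07 (adjusted p = 1.31e-07) and 0.45 ± 0.08 (adjusted p = 4.16e-07). At 2 h the value of RSKi47 replicate 4, 17.24, fell among the WT values while the other 3 were 17.69 to 17.78. Myh9, the motor of the cortex, read 13.97, 14.05, 13.93 and 14.09 without LPS against a WT lowest, median and highest of 13.32, 13.38 and 13.59. The groups did not overlap at any time, with differences of 0.59 ± 0.07 (adjusted p = 4.76e-11), 0.57 ± 0.08 (adjusted p = 5.22e-09), 0.47 ± 0.07 (adjusted p = 5.68e-08) and 0.49 ± 0.08 (adjusted p = 1.7e-07). Vcl read 11.08, 11.14, 10.98 and 11.04 without LPS, above all WT values, and differed by 0.32 ± 0.05 (adjusted p = 1.16e-07), 0.39 ± 0.06 (adjusted p = 1.03e-08), 0.27 ± 0.05 (adjusted p = 5.15e-06) and 0.50 ± 0.06 (adjusted p = 1.9e-12).

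Tpm4 and Cnn2 were lower in the RSKi47 than in the WT libraries. Tpm4 read 13.35, 13.33, 13.32 and 13.21 without LPS, below the WT lowest of 13.66, and differed by -0.39 ± 0.04 (adjusted p = 7.87e-17), -0.34 ± 0.04 (adjusted p = 2.18e-12), -0.44 ± 0.04 (adjusted p = 8.36e-20) and -0.44 ± 0.04 (adjusted p = 1.77e-17). Cnn2 read 9.89, 9.95, 9.75 and 9.81 without LPS, below all WT values. It differed by -0.46 ± 0.08 (adjusted p = 2.16e-07), -0.39 ± 0.08 (adjusted p = 5.67e-05), -0.46 ± 0.08 (adjusted p = 3.59e-07) and -0.60 ± 0.08 (adjusted p = 1.87e-09), where the DMSO libraries, with no inhibitor, differed from WT by -0.41 without LPS. Tagln2 differed by -0.11 ± 0.03 (adjusted p = 0.00273) and -0.12 ± 0.04 (adjusted p = 0.00494) at 0 and 0.5 h, and by -0.32 ± 0.03 (adjusted p = 8.47e-14) and -0.38 ± 0.04 (adjusted p = 1.91e-15) at 1 and 2 h.

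The response of Tagln2 to LPS was smaller under RSKi47 than in WT. It rose by 0.65 ± 0.04 at 2 h against 0.91 in WT, a difference of responses of -0.26 ± 0.05 (adjusted p = 2.17e-05), and the difference at 1 h was -0.20 ± 0.05 (adjusted p = 0.00212). No other response of the 10 was called different, beside 0.0251%, 5.54% and 21% of all genes at 0.5, 1 and 2 h, and at 0.5 h none of the 10 had an unadjusted p below 0.05. With the replicate number as a block, Vcl was added at 2 h (0.17). By 2 h 6 of 10 genes had risen under RSKi47 (Actb, Actg1, Vcl, Tpm4, Tagln2 and Zyx), where 32.5% of all genes were called higher and 29.7% lower. Zyx (0.21 ± 0.09) lost that call without RSKi47 replicate 1, 2 or 3 (0.18 in each) and Vcl (0.15 ± 0.06) without replicate 1 or 3 (0.13 in each). Median centring ended both (0.18 and 0.11), and other libraries in the fit that of Zyx (adjusted p = 0.0512). Myh9 (-0.16 with the block, -0.19 with median centring) and Tln1 (-0.18 and -0.22) were called lower at 2 h of LPS under these settings, and Myh9 also with other libraries in the fit (-0.16).

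Differences under RSKi47 went with transcript length over all genes. Spearman's correlation across genes between the log2 difference at 0 h and the longest transcript was 0.42, and 0.396, 0.314 and 0.315 at 0.5, 1 and 2 h. This was not particular to RSKi47. The correlation was 0.41 for WT cells at 0.5 h of LPS against 0 h. Against WT it was 0.289 and 0.275 for Elk1-/-Elk4-/- cells at 0 and 1 h. It was -0.207 for Nfkb1[SS/AA] cells at 1 h and -0.0322 with PD0325901 at 0.5 h. Genes are not independent replicates. With each library's trend with length removed, Actb (0.66), Myh9 (0.41), Vcl (0.23), Actg1 (0.24), Tpm4 (-0.31) and Cnn2 (-0.41) stayed called at 0 h. Flna (0.06), Tln1 (0.01) and Tagln2 (0.01) did not, and Tagln2 changed sign. The correction was chosen after the data were seen.

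The calls of Flna and Tln1, an integrin activator, under RSKi47 were also the least stable. Flna differed by 0.26 ± 0.08 (adjusted p = 0.00336), 0.24 ± 0.08 (adjusted p = 0.0151), 0.13 ± 0.08 and 0.19 ± 0.08 (adjusted p = 0.0449) at the 4 times, and Tln1 by 0.21 ± 0.09 (adjusted p = 0.0328), 0.23 ± 0.09 (adjusted p = 0.0334), 0.18 ± 0.09 and 0.21 ± 0.09. Flna was lost at 0.5 h without WT replicate 5 (0.20) or RSKi47 replicate 3 (0.23), and at 2 h without WT replicate 6 (0.13) or RSKi47 replicate 1 (0.19), 2 (0.19) or 3 (0.17). The 2 h call of Flna was also lost with median centring (0.16, adjusted p = 0.088), no filter (adjusted p = 0.0621), the replicate block (adjusted p = 0.08) and the length trend removed (0.01, adjusted p = 0.864), and the last ended its 0.5 h call (0.05) and that of Tln1 (0.05). Tln1 was lost at 0 h without WT replicate 4, 5, 6 or 8 or RSKi47 replicate 1 or 2 (0.18 to 0.21) and at 0.5 h without WT replicate 4 or 5 or any RSKi47 replicate (0.19 to 0.24). Tln1 was gained at 1 h without WT replicate 7 or 9 (0.21 in each) or with the replicate block (0.18, adjusted p = 0.0464, limma). At 2 h it was gained without WT replicate 7 (0.23) or 9 (0.21) or RSKi47 replicate 4 (0.27). Actg1, at 0.14, 0.17, 0.08 and 0.11, was gained at 1 h without WT replicate 9 (0.09) or RSKi47 replicate 4 (0.11) or with the length trend removed (0.14), and lost at 2 h without RSKi47 replicate 1 (0.10), 2 (0.09) or 3 (0.09), with median centring (0.08) or with other libraries in the fit (adjusted p = 0.0636). Without RSKi47 replicate 4, whose stromal markers were high, Actb differed at 0 h by 0.61, Myh9 by 0.56, Vcl by 0.33, Tpm4 by -0.36 and Cnn2 by -0.45, all called.

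**Figure D4:**
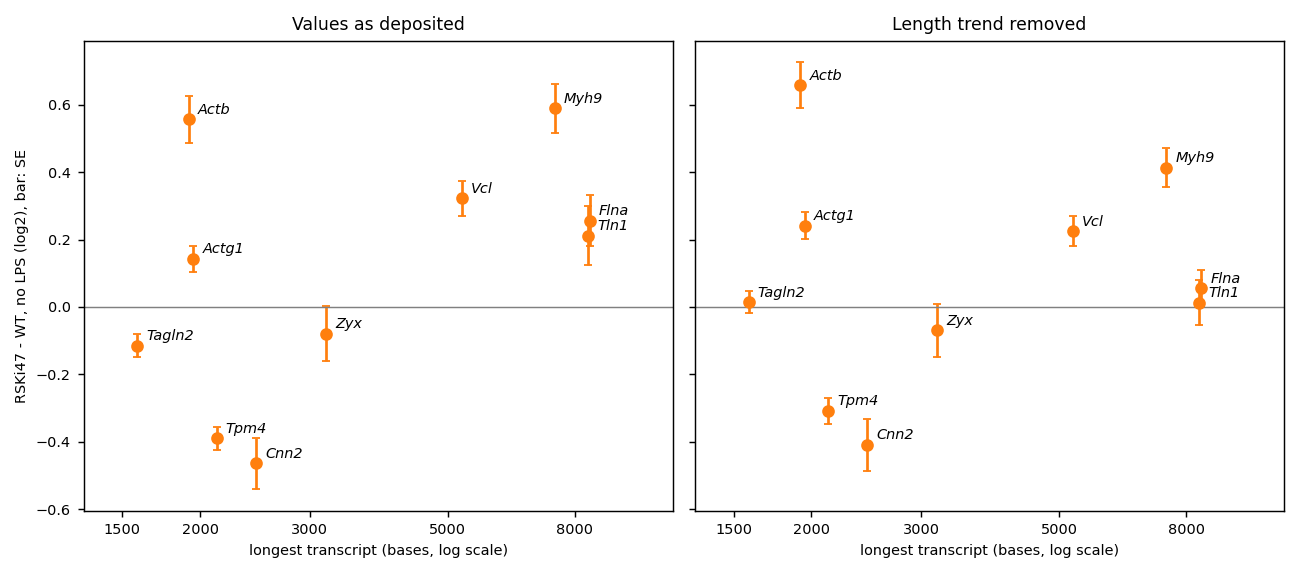
Difference between RSKi47 and WT without LPS (y axis, log2, bars give the SE) against the longest transcript of each gene (x axis, bases, log scale), as deposited and with each library's length trend removed. Flna, Tln1 and Tagln2 move to near 0, and Actb, Myh9, Vcl and Actg1 stay above it, Tpm4 and Cnn2 below it.

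Side by side, the arms share the same WT libraries as reference, and their values for a gene are given here as such. Cnn2 at 1 h differed from WT by 0.01 in Map3k8[D270A], 0.29 in Elk1-/-Elk4-/-, -0.61 in Nfkb1[SS/AA], -0.48 under PD0325901 and -0.46 under RSKi47. Actb at 1 h differed by 0.02, 0.05, -0.29, -0.30 and 0.43 in the same order. Vcl differed by 0.09, 0.36, 0.07, 0.08 and 0.27, of which the second and the last were called.

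**Figure D5:**
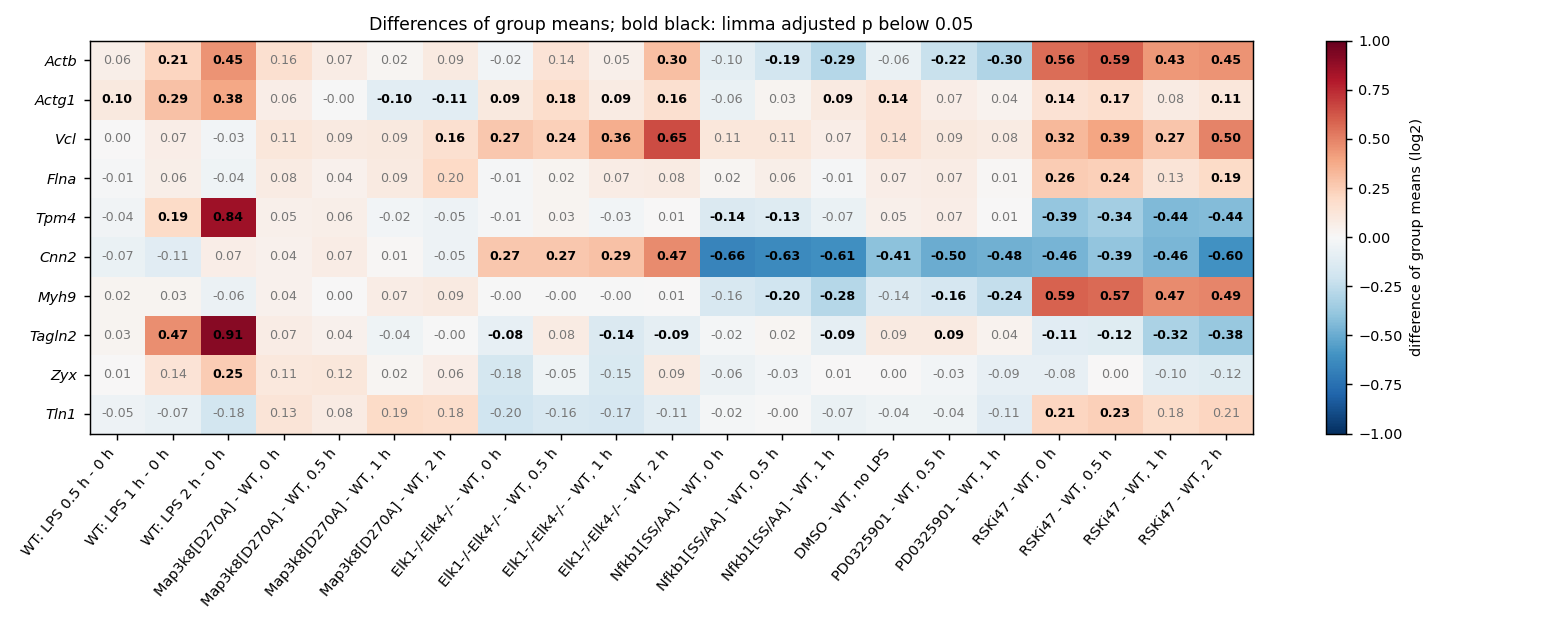
Differences of group means (colour and printed number, log2) of the 10 genes (rows) in 21 comparisons (columns), bold where limma's adjusted p is below 0.05. Rows of Cnn2, Actb and Myh9 change sign between arms, and Zyx is bold only for WT cells at 2 h of LPS.

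Over the 25 groups Tpm4 and Tagln2 varied most against their spread within groups, and Flna least. Group means of Tpm4 ranged from 13.30 (RSKi47, 0 h) to 14.54 (Elk1-/-Elk4-/-, 2 h), a range of 23.3 times the within-group SD. Tagln2 ranged from 13.36 (RSKi47, 0 h) to 14.39 (WT, 2 h), 20.3 times. Cnn2 had the widest range, 1.26, from 9.59 (Nfkb1[SS/AA], 1 h) to 10.85 (Elk1-/-Elk4-/-, 2 h), but only 10.6 times its SD. Flna ranged over 0.30, or 2.47 times. The 10 genes did not move as one group: over the 45 pairs the median Pearson correlation of group means was 0.27, and 14 pairs were below 0. Within groups, over 119 libraries, the median was 0.19. The highest within groups were Flna with Tln1 (0.90), Flna with Myh9 (0.87) and Myh9 with Tln1 (0.83), which have the longest transcripts of the 10 together, and Actb with Zyx (0.74). These correlations share libraries and are descriptions only. The genes whose group means were most like the mean of the 10, each scaled, were Supt6 (Pearson r = 0.922 over 25 groups), 2510009E07Rik (0.916), Acvr1 (0.916), C3 (0.913) and Cand1 (0.905).

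Another 31 known SRF targets of the cytoskeleton and adhesion were read in the same way, and 26 passed the low-value filter. LPS raised 1, 12 and 17 of them in WT at 0.5, 1 and 2 h and lowered 0, 1 and 2, beside 7.82%, 23.8% and 34.7% of all genes higher and 3.81%, 23.0% and 36.8% lower. There were rises at 2 h in, among others, Cnn3 (calponin 3, 2.72 ± 0.18), Itga5 (integrin α5, 1.82 ± 0.06) and Vasp (an actin filament elongator, 1.66 ± 0.07). In Map3k8[D270A] cells at 2 h 3 were higher and 4 lower (14.6% and 13.1% of all genes), with Cnn3 at -0.88 ± 0.18 and Vasp at -0.43 ± 0.07. In Elk1-/-Elk4-/- cells without LPS 11 were higher and 8 lower (27.2% and 24.6% of all genes), among them Myh10 (non-muscle myosin IIB, 0.79 ± 0.12), Pdlim5 (0.49 ± 0.05) and Tpm2 (-0.68 ± 0.12), and Thbs1 (thrombospondin 1) was at 1.56 ± 0.20 at 2 h. In Nfkb1[SS/AA] cells without LPS 5 were higher and 9 lower (16.9% and 15.1% of all genes), with Thbs1 (-0.85 ± 0.17), Myh10 (-0.76 ± 0.14), Tpm2 (-0.70 ± 0.10) and Pdlim5 (-0.50 ± 0.05) the most changed. Under RSKi47 without LPS 10 were higher and 7 lower (26.8% and 26.3% of all genes), led by Ctgf (1.61 ± 0.19). The medians of these lists were 0.29 (WT, 2 h), 0.07 (Elk1-/-Elk4-/-, 0 h), 0.01 (Nfkb1[SS/AA], 0 h) and 0.07 (RSKi47, 0 h), beside -0.02, 0.01, 0.00 and 0.01 over all genes.

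Of the 9 subunits of the Arp2/3 complex, which nucleates branched actin, 6 rose and 1 fell in WT at 2 h (34.7% and 36.8% of all genes), and 6 were lower and 1 higher under RSKi47 without LPS (26.3% and 26.8% of all genes), with a median of -0.17 beside 0.01 over all genes. Of 9 tubulins, 5 were lower and 1 higher under RSKi47 without LPS (median -0.26), and 6 were higher and 1 lower with PD0325901 at 1 h (16.4% and 19.3% of all genes), with a median of 0.31 beside -0.01 over all genes. In the DMSO libraries 5 of the 9 tubulins were higher and none lower (12.5% and 11.1% of all genes), with a median of 0.32 beside 0.00. Between PD0325901 and DMSO at 10 min the median of the tubulins was 0.02. Srf rose in WT at 1 h (0.35 ± 0.04, adjusted p = 5.31e-10) and 2 h (0.13 ± 0.05, adjusted p = 0.0167), while Mkl1 (-0.57 ± 0.08) and Mkl2 (-0.31 ± 0.07) fell by 2 h. In Map3k8[D270A] cells at 2 h Srf was lower (-0.24 ± 0.05) and Mkl1 (0.62 ± 0.08) and Mkl2 (0.27 ± 0.07) higher than in WT, and under RSKi47 without LPS Mkl2 was higher (0.54 ± 0.07) and Srf lower (-0.19 ± 0.05).

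The CArG boxes shown above belong to the 3 genes of the list called higher in Elk1-/-Elk4-/- cells at all 4 times, Vcl, Cnn2 and Actg1. Among 132 other tested genes with a box in the window, 22.7% were higher and 26.5% lower at 0 h in these cells, beside 27.3% and 24.8% of 9012 genes without one. At 2 h of LPS in WT the shares were 43.9% higher and 25% lower with a box, and 34.7% and 37.3% without. The shares were not tested, and absence of these letters from a window says nothing about binding elsewhere.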

How the data were processed

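Reads were single-end and strand-specific. The authors mapped them and estimated the expression of each RefSeq gene with STAR 2.5.1b, RSEM 1.2.29 and DESeq2 1.10.1 on mm10 (tools and build from the submitters' processing notes). They deposited 1 table of normalised values on a log2 scale for 18098 genes in 119 libraries; neither labels nor methods give the transformation, and the depth is given only as a typical yield, not per library. Here 1 value above 25 was set to missing. Genes at 10 or more on the linear scale in at least 4 (62 WT, Map3k8[D270A] and Elk1-/-Elk4-/- libraries, 11884 genes) or 3 libraries (all 119, for the other arms, 11971 genes) were fitted with limma 3.58.1 in R 4.3.3, with p-values adjusted by Benjamini-Hochberg over all genes and called below 0.05. Errors are SE and the interval is 95%. The script was tested on simulated data. The members and lists were chosen with earlier results of these data known. All 10 genes were named, with the most changed genes of each list (1 of them is not reported here), Srf, its partners and the 5 genes most like the mean of the 10. Same-numbered WT libraries of different times deviated together (30 of 30 pairs with a correlation over 0.1, lowest 0.165), as did Nfkb1[SS/AA] libraries (18 of 18, lowest 0.145). In the other arms they did so in part: 34 of 36 pairs in Map3k8[D270A], 20 of 24 in Elk1-/-Elk4-/-, 18 of 21 in RSKi47 and 19 of 48 in PD0325901 libraries. Alternatives were median centring, no filter, a mean-variance trend, other libraries in the fit, the replicate block, subsets, each replicate left out, and removal of a trend with transcript length (lowess, span 0.3), added after the data were seen.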

Additional observations from a re-analysis of the deposited data

Results flagged for a closer look

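In groups of 4 to 6 libraries, 12 of the 200 gene and group combinations tested (6%) held a library that stood apart from the rest, where chance gives about 1 in 20. Under RSKi47 at 2 h, replicate 4 was low for Actb (17.24, the others 17.69 to 17.78), Tpm4 (13.99, the others 14.13 to 14.15) and Zyx (11.49, the others 12.02 to 12.08). In WT cells at 2 h, replicate 6 was low for Flna (14.87, the others 15.13 to 15.14) and Myh9 (13.23, the others 13.40 to 13.42), and without LPS replicate 9 was high for Actg1 (16.53, the others 16.33 to 16.40). In Map3k8[D270A] cells at 1 h, replicate 4 was high for Actb (17.05, the others 16.89 to 16.94) and Actg1 (16.66, the others 16.56 to 16.59). In Nfkb1[SS/AA] cells at 1 h, replicate 2 was low for Flna (14.90, the others 15.14 to 15.27) and high for Tagln2 (14.05, the others 13.79 to 13.86). In Elk1-/-Elk4-/- cells replicate 3 was low for Tagln2 at 1 h (13.74, the others 13.81 to 13.83) and replicate 2 high for Tln1 at 0.5 h (14.21, the others 14.11 to 14.12).

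The LPS response differed from that of WT cells, by limma's test of the difference itself, in 7 cases. Actg1 responded less in Map3k8[D270A] cells at 1 h (-0.17) and 2 h (-0.17) and more in Nfkb1[SS/AA] cells at 1 h (0.16). Vcl (0.38) and Actb (0.33) responded more in Elk1-/-Elk4-/- cells at 2 h. Tagln2 responded less under RSKi47 at 1 h (-0.20) and 2 h (-0.26). By the same test 1.3% and 8.6% of all genes responded less in Map3k8[D270A] cells at 1 and 2 h. In Nfkb1[SS/AA] cells at 1 h 1.77% responded more, and in Elk1-/-Elk4-/- cells at 2 h 8.17%. Under RSKi47 3.27% and 10.4% responded less at 1 and 2 h. With the length trend removed the Actg1 calls at 1 h and the Actb call were lost. The Actg1 call at 2 h was lost without WT replicate 4.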

How the results depend on the processing

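Of 390 differences and responses, 379 kept their direction and side of the threshold with libraries centred on their median, 387 with no filter, 384 with a mean-variance trend, 377 with other libraries in the fit, 377 with the replicate block and 359 with the length trend removed. The fit with the replicate block lost 2 calls, Tagln2 in Elk1-/-Elk4-/- cells at 0 h (-0.08, adjusted p = 0.0656) and Flna under RSKi47 at 2 h (0.16), and added 11. Replicate numbers outside the WT and Nfkb1[SS/AA] arms may be only numbers. Even so, 34 of 36 same-numbered Map3k8[D270A] pairs and 18 of 21 RSKi47 pairs had a correlation over 0.1. Of 3880 values with a replicate left out, 3749 kept theirs.

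Actg1 at 0.5 h of LPS in WT was the 1 call of 10 there, and 0 of 10 passed with median centring, with the mean-variance trend and in either subset of WT and Map3k8[D270A] replicates. With the mean-variance trend 0 passed in Map3k8[D270A] cells at 1 h. With the length trend removed, 0 passed there at 1 h, 1 at 2 h, 6 in Elk1-/-Elk4-/- cells at 0.5 h and 4 in Nfkb1[SS/AA] cells at 0 h. The median of the 10 became -0.0050 in Elk1-/-Elk4-/- cells at 1 h and 0.035, 0.047, 0.021 and 0.022 under RSKi47 at 0, 0.5, 1 and 2 h. Tagln2 turned to 0.016 in Elk1-/-Elk4-/- cells at 0 h and to 0.014 and 0.0013 under RSKi47 at 0 and 0.5 h. The median for PD0325901 at 70 against 10 min became 0.012 with median centring. With other libraries in the fit 3 passed in Nfkb1[SS/AA] cells at 1 h and 4 in DMSO, and with PD0325901 libraries averaged in pairs 2 at 0.5 h.

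With WT 4 to 6 and Map3k8[D270A] 1 to 3 alone, 1 passed in Map3k8[D270A] cells at 0 h and 6 at 2 h (median 0.17), and 8 responded by 2 h (median 0.27), where Myh9 turned to 0.24 (-0.26 in the other subset) and the difference of the Zyx responses to 0.25. With WT 7 to 9 and Map3k8[D270A] 4 to 6 alone, 0 passed at 1 h (median 0.070). At 2 h, where a single WT library remains, the median was -0.018. The LPS medians at 2 h were 0.055 in WT and -0.10 in Map3k8[D270A] cells, and Zyx in the latter turned to -0.091. Neutrophil marker sums at 1 h were 86.9 to 94 in WT 4 to 6 and 180 to 218 in WT 7 to 9. In Map3k8[D270A] 1 to 3 and 4 to 6 they were 80.2 to 87.3 and 128 to 190. The cause was not tested. With each replicate left out, the number passing ranged from 0 to 1 in WT at 0.5 h, 0 to 1 and 0 to 2 in Map3k8[D270A] cells at 1 and 2 h, 2 to 3 in Elk1-/-Elk4-/- cells at 0 h, 2 to 4 in Nfkb1[SS/AA] cells at 0 h, 2 to 5 with PD0325901 at 0.5 h and 1 to 3 in DMSO, and the median in Elk1-/-Elk4-/- cells at 2 h from 0.030 to 0.15. Pseudocounts were not tried because the values are already on a log scale. Depth is not given per library and the values are not counts, so counting error could not be given.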
